A study of Mus musculus with 6 samples.

Results

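Fibroblast growth factors (FGFs) are secreted signalling proteins, and the 9 genes described here encode 6 of them, Fgf1, Fgf2, Fgf7, Fgf9, Fgf10 and Fgf18, and 3 of their receptors, Fgfr1, Fgfr2 and Fgfr3. They were taken as the rows of a deposited lung expression table whose gene symbol equals one of these names, and all 9 were found among its 18174 rows. The study compared 2 groups of lung tissue from wild type male C57BL/6J mice, an inbred laboratory strain. In the cold group mice were held at 4 °C for 6 h before the lungs were taken, and in the other group they stayed at room temperature. Each group had 3 libraries, made from total RNA and called biological replicates. The labels do not say that each came from its own animal, so p-values measure the spread between these libraries. No ages are given, and all 6 libraries share strain, sex and genotype.

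FGFs bind receptor tyrosine kinases together with heparan sulphate on the cell surface, and the bound receptor passes its signal through the adaptor Frs2 to the MAP kinase cascade. In the lung, Fgf10 and Fgf7 come from mesenchymal cells and act on the epithelial splice form of Fgfr2, a signal that branching of the developing airway and upkeep of alveolar type 2 cells depend on. Fgf9 is known in lung development from mesothelium and epithelium, and Fgf18 from mesenchyme during alveolar growth. Signalling switches on its own inhibitors, among them the Sprouty proteins and the phosphatase Dusp6, and transcription factors such as Etv4 and Etv5. The table holds 1 value per gene, so splice forms of the receptors are not separated in it.

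The promoters of the 3 ligand genes with the largest rise and of the only member that fell are shown for comparison. Each covers 250 bases before and 50 bases from a RefSeq transcript start on, in build GRCm38.p6, written 5′ to 3′ along the gene. For Fgf9 and Fgf2 that start lies downstream of the first base of the RefSeq gene span, at 58070671 and 37348477. Capitals mark a match on either strand to any of 7 searched motifs.
Fgf2 (chr3:37348403-37348702, + strand): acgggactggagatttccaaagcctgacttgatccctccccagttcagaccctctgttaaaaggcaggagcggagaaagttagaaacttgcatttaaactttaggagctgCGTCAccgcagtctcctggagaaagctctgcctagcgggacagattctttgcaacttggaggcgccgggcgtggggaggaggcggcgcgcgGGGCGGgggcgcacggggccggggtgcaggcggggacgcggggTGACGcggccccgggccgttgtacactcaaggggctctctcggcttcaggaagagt
Fgf7 (chr2:126034408-126034707, + strand): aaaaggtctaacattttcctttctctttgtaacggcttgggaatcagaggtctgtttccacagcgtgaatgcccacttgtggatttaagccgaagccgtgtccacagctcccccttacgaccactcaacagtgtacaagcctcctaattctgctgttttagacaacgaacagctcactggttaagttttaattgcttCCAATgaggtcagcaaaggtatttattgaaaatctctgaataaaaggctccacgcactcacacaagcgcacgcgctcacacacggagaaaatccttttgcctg
Fgf10 (chr13:118714449-118714748, + strand): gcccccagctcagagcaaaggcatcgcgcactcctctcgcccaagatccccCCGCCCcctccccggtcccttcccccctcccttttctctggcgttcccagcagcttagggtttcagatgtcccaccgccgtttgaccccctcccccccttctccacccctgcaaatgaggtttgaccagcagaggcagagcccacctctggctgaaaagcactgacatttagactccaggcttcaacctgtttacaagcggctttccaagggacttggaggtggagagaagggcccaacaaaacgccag
Fgf9 (chr14:58072436-58072735, + strand): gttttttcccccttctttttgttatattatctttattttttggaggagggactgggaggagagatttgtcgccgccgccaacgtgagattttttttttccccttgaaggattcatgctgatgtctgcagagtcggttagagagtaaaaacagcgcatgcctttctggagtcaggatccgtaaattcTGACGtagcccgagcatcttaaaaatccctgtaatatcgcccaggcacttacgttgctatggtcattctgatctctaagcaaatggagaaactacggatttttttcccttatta
Of the 9 members, 7 were included in the promoter search (8 windows, since Fgfr3 has more than 1). Fgf1 and Fgfr1 were not included, which does not show that they lack a RefSeq promoter entry. The motifs were the cyclic AMP response element TGACGTCA and its core TGACG, the AP-1 site TGANTCA, the GC box GGGCGG, the CCAAT box CCAAT, the TATA box TATAAA and the palindromic glucocorticoid response element. Every full element also holds its core, and other motifs may overlap. The Fgf2 window held the core TGACG at 2 places and 1 GC box, the Fgf9 window 1 core, the Fgf7 window 1 CCAAT box and the Fgf10 window 1 GC box. The core TGACG was present in 20.8% of all 32851 RefSeq windows a CCAAT box in 37.4% and a GC box in 35.7%. None (0) of the 8 windows searched for members held the full TGACGTCA, present in 1.79% of all windows, or TGANTCA, present in 7.81%. None (0) held TATAAA, present in 13.6%, or the glucocorticoid element, present in 0.00913%. These windows differed in base composition, with a G and C content of 62.7% for Fgf2, 60.7% for Fgf10, 45.7% for Fgf7 and 42.7% for Fgf9.

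The deposited values are RPKM, reads per kilobase and per M (mega) reads, and the length used matches the whole gene span, introns included. Values below are scaled RPM: the RPKM times the span in kilobases, divided by a factor per library that corrects for composition. The depth that the steps between low values imply was 32.7 to 35.1 M reads in the cold libraries and 39.7 to 48.7 M in the room temperature libraries. With limma on log2(scaled RPM + 0.5) and Benjamini-Hochberg adjustment over 15238 genes, 70.5% of all genes tested were called at an adjusted p under 0.05. Of those calls 50.4% were higher in cold, and 65.1% were under the deposited scaling by library totals. Calls were thus common across the table, and the first principal component, with 90.2% of the variance, separated the groups. Room temperature replicate 3 lay on it at 44.0, between the cold libraries (−77.9 to −69.3) and room temperature replicates 1 and 2 (81.3 and 94.2). The alveolar type 2 markers that define lung tissue were present in all 6 libraries.

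Of the 9 members, 7 were higher in cold (background 35.5% of all genes tested) and 1 was lower (background 35.0%). Fgf1, Fgf2, Fgf7, Fgf10, Fgfr1, Fgfr2 and Fgfr3 rose, Fgf9 fell, and Fgf18 did not pass the test. The members' median log2 fold change was 0.60, against 0.00 over all genes tested. The composition scaling by itself holds the median of all genes close to that value. All 9 passed the read minimum. The 3 cold libraries lay above the 3 room temperature libraries in the 7 genes that rose (background 38.4%) and below them in Fgf9 (background 37.8%), so 8 of 9 members had groups that did not overlap (background 76.2%). By the authors' deposited table, members higher at a q value under 0.05 numbered 3 (background 12.7%), and 1 was lower (background 12.0%). These were Fgf2, Fgf7 and Fgf10 on the one side and Fgf9 on the other. The authors' deposited table gave q values of 0.645 for Fgf1, 0.580 for Fgfr1, 0.523 for Fgfr2 and 0.314 for Fgfr3.

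**Figure D1:**
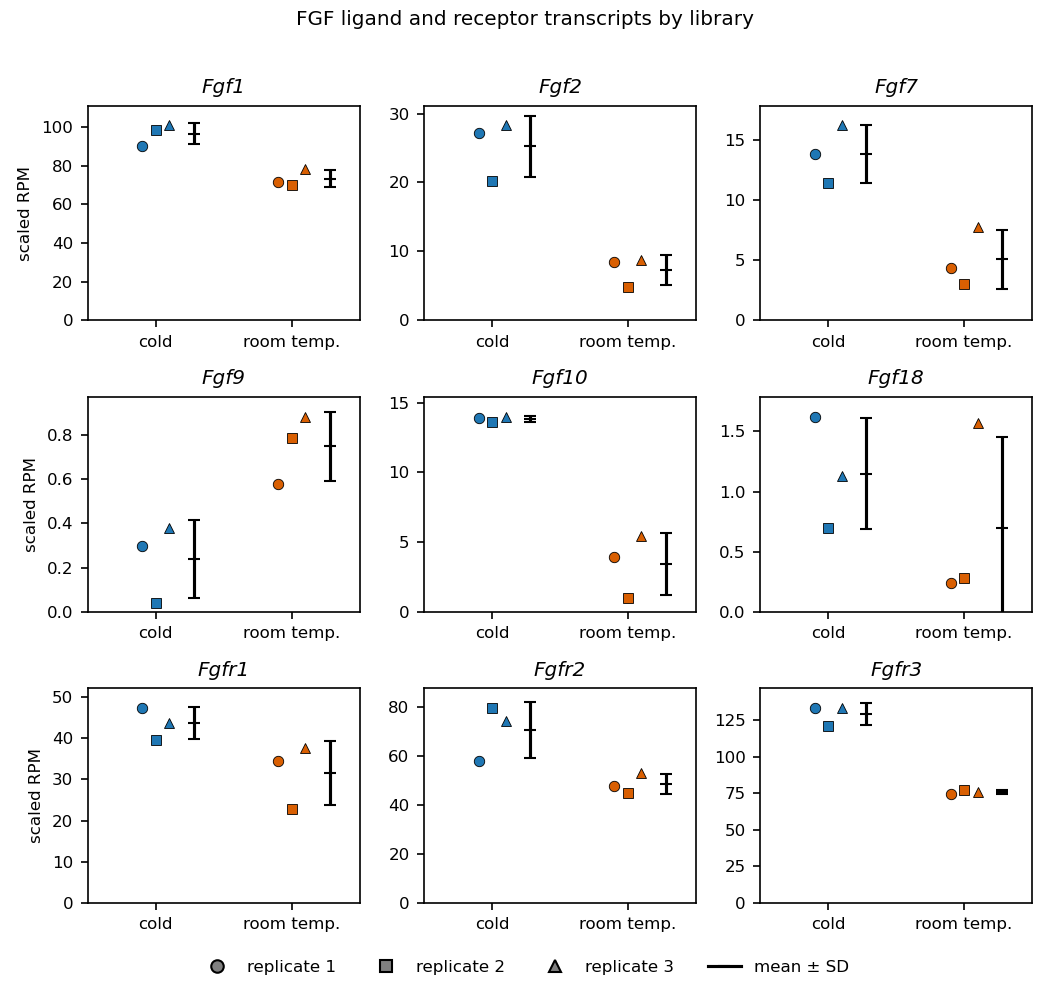
Scaled RPM (vertical axis, from 0) of the 9 FGF genes in the 3 cold and 3 room temperature libraries, with the mean ± SD beside each group, where the room temperature bar of Fgf18 is cut off at 0. Cold points lie above room temperature points in 7 panels, below them in Fgf9, and overlap them in Fgf18 through room temperature replicate 3.

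The mesenchymal ligands Fgf10 and Fgf7 rose together. Fgf10 (ENSMUSG00000021732, chromosome 13, 118669791 to 118792115, + strand, GENCODE M21 on GRCm38) stood at 13.9, 13.6 and 14.0 scaled RPM in cold replicates 1 to 3, against 3.92, 1.00 and 5.39 in room temperature replicates 1 to 3. The cold libraries were nearly level, with a coefficient of variation of 1.57%, and those at room temperature spread over 65.0%. The means were 13.8 ± 0.218 in cold and 3.44 ± 2.24 at room temperature (SD, n = 3 each), and the log2 fold change was 2.08 ± 0.48 (SE, limma adjusted p = 0.0072). Fgf7, keratinocyte growth factor (ENSMUSG00000027208, chromosome 2, 126034658 to 126091185, + strand), had 13.9, 11.4 and 16.2 scaled RPM in cold libraries, against 4.40, 3.04 and 7.77 in room temperature libraries. Every cold value exceeded every room temperature value, of which replicate 3 was the highest. Its log2 fold change was 1.44 ± 0.30 (SE, limma adjusted p = 0.0041), from means of 13.8 ± 2.42 in cold and 5.07 ± 2.44 at room temperature (SD, n = 3 each). The gene lies wholly within Fam227b, which is transcribed from the other strand, and no label says if strand was kept, so the reads of both genes may be mixed.

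Of the FGFs that lack a classical secretion signal, Fgf2 rose strongly and Fgf1 little. Fgf2, basic FGF (ENSMUSG00000037225, chromosome 3, 37348346 to 37410108, + strand), had 27.2, 20.1 and 28.3 scaled RPM in cold libraries, against 8.48, 4.84 and 8.75 in room temperature libraries. Replicate 2 was the lowest in each group and the groups lay far apart. The means of 25.2 ± 4.43 in cold and 7.36 ± 2.19 at room temperature (SD, n = 3 each) gave a log2 fold change of 1.74 ± 0.24 (SE, limma adjusted p = 0.00053). Nudt6, on the other strand, overlaps its last part. Fgf1, acidic FGF, which can bind every FGF receptor (ENSMUSG00000036585, chromosome 18, 38838673 to 38929472, − strand), had 90.3, 98.4 and 101 scaled RPM in cold libraries, against 71.4, 70.0 and 78.5 in room temperature libraries. The groups did not overlap, yet the means of 96.5 ± 5.55 in cold and 73.3 ± 4.57 at room temperature (SD, n = 3 each) were only 1.32-fold apart. Its log2 fold change was 0.39 ± 0.09 (SE, limma adjusted p = 0.0066), and it was 0.72 under the deposited scaling by library totals, which moved the median of all genes to 0.29. Fgf1 sits inside Arhgap26, which runs on the opposite strand, so its values and those of Fgf2 carry the same doubt on strand as those of Fgf7.

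Fgf9 and Fgf18 were the scarcest members. Fgf9 (ENSMUSG00000021974, chromosome 14, 58070547 to 58112720, + strand) had 0.30, 0.0378 and 0.377 scaled RPM in cold libraries, against 0.579, 0.789 and 0.886 in room temperature libraries. Its values stand for 1.38 to 34.0 reads a library, and in cold replicate 2 the deposited 0.001 RPKM is a single step of the last decimal. The log2 fold change was −0.78 ± 0.23 (SE, limma adjusted p = 0.016), from means of 0.238 ± 0.178 in cold and 0.751 ± 0.156 at room temperature (SD, n = 3 each). Without cold replicate 2 the change was −0.55 with an adjusted p of 0.059 by limma. Its size depended on the added constant, at −1.50 with 0.1 RPM, −0.30 with 2 RPM and −2.13 by voom on recovered reads. Fgf18 (ENSMUSG00000057967, chromosome 11, 33117430 to 33147400, − strand) had 1.62, 0.698 and 1.13 scaled RPM in cold libraries, against 0.240, 0.280 and 1.57 in room temperature libraries. Room temperature replicate 3 thus fell among the cold values, and the means of 1.15 ± 0.464 in cold and 0.698 ± 0.758 at room temperature (SD, n = 3 each) were within that spread. The log2 fold change was 0.60 ± 0.43 (SE, 95% interval −0.41 to 1.6, limma adjusted p = 0.24), and without room temperature replicate 3 it was 1.07 with an adjusted p of 0.0045. Without room temperature replicate 1 or 2 it was 0.33 or 0.37 (limma adjusted p = 0.56 and 0.52), and without cold replicate 1 it was 0.40 (adjusted p = 0.49).

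All 3 receptors rose, each with a smaller fold change than Fgf2, Fgf7 or Fgf10, a difference between genes that was not tested. Fgfr3 (ENSMUSG00000054252, chromosome 5, 33721674 to 33737068, + strand), a receptor best known as a brake on bone growth, had 134, 121 and 133 scaled RPM in cold libraries, against 74.6, 77.3 and 75.6 in room temperature libraries. Its spread was the smallest among the members at room temperature, with a coefficient of variation of 1.82%, and room temperature replicate 3 did not stand apart. The means were 129 ± 7.20 in cold and 75.8 ± 1.38 at room temperature (SD, n = 3 each), with a log2 fold change of 0.76 ± 0.09 (SE, limma adjusted p = 0.00020). Fgfr2, the receptor of Fgf7 and Fgf10 on epithelium (ENSMUSG00000030849, chromosome 7, 130162451 to 133123350, − strand), had 57.9, 79.6 and 74.2 scaled RPM in cold libraries, against 47.4, 45.0 and 52.8 in room temperature libraries. The lowest cold value stood just above the highest room temperature value. Its log2 fold change was 0.53 ± 0.14 (SE, limma adjusted p = 0.0096), with means of 70.5 ± 11.3 in cold and 48.4 ± 4.02 at room temperature (SD, n = 3 each). Fgfr1, a receptor of many mesenchymal cells (ENSMUSG00000031565, chromosome 8, 25513654 to 25575718, + strand), had 47.4, 39.6 and 43.8 scaled RPM in cold libraries, against 34.5, 22.8 and 37.5 in room temperature libraries. The log2 fold change was 0.48 ± 0.19 (SE, limma adjusted p = 0.047), from means of 43.6 ± 3.89 in cold and 31.6 ± 7.76 at room temperature (SD, n = 3 each). The call for Fgfr1 was at the threshold: it was kept in 11 of 18 settings. Of the fits that left out 1 library, only that without room temperature replicate 3 kept it (limma adjusted p = 0.011), and the others gave up to 0.12. Without room temperature replicate 2, the lowest library, its log2 fold change was 0.25 with an adjusted p of 0.089. Under the deposited scaling Fgfr1 stood at 0.81 and Fgfr2 at 0.85 on the log2 scale.

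In the deposited table Fgfr2 was listed far below the other receptors. The file listed it at 0.022, 0.030 and 0.028 RPKM in cold libraries and at 0.014, 0.013 and 0.017 in room temperature libraries. Fgfr1 was listed at 0.860, 0.713 and 0.789 RPKM in cold libraries and at 0.486, 0.315 and 0.576 in room temperature libraries. In GENCODE M21 the Fgfr2 gene runs over 2961 kb, 28.4 times its RefSeq span of 104 kb, because of a transcript model that reaches far upstream. Its M21 span overlaps 69 other annotated genes, and 25 genes of the table lie wholly within it. All 25 have a value above 0 in at least 1 library, which does not tell how reads in an overlap were counted. Its exons cover 10.3 kb, or 1 base in 287 of the span. For the other 8 members the span was 2.15 to 26.6 times the exon length. No source used here says if the authors' own annotation held this long Fgfr2 model. A value of 2 digits is also coarse, with rounding of up to 3.85%. With RefSeq spans for the members, an alternative chosen after seeing the data, Fgfr2 had a log2 fold change of 0.43 ± 0.17 (SE) with a limma adjusted p of 0.057. The shorter span divides all Fgfr2 values by the same number and leaves the ratios between libraries as they were. The smaller log2 fold change comes from the 0.5 RPM added to these lower values.

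Counted per kilobase of exon, Fgfr3 and Fgf1 had the highest levels of the 9 transcripts. In cold libraries the level was 18.1 ± 1.0 scaled RPM per kilobase of exon for Fgfr3, 17.7 ± 1.02 for Fgf1, 6.83 ± 1.09 for Fgfr2, 4.42 ± 0.394 for Fgfr1 and 4.26 ± 0.745 for Fgf7 (SD, n = 3). Next in cold came Fgf2 at 3.72 ± 0.653, Fgf10 at 3.01 ± 0.0474, Fgf18 at 0.968 ± 0.391 and Fgf9 at 0.0513 ± 0.0383 on the same scale (SD, n = 3). Neighbours whose cold libraries overlapped were Fgfr3 and Fgf1, Fgfr1 and Fgf7, Fgf7 and Fgf2, and Fgf2 and Fgf10. At room temperature Fgf1 led with 13.4 ± 0.837, followed by Fgfr3 at 10.6 ± 0.193, Fgfr2 at 4.69 ± 0.389, Fgfr1 at 3.20 ± 0.786 and Fgf7 at 1.56 ± 0.751 scaled RPM per kilobase of exon (SD, n = 3). Below them stood Fgf2 at 1.08 ± 0.323, Fgf10 at 0.747 ± 0.486, Fgf18 at 0.588 ± 0.639 and Fgf9 at 0.162 ± 0.0337 (SD, n = 3). There the libraries of neighbours overlapped from Fgfr1 down to Fgf18 and were separate above and below. Per kilobase of span Fgfr2 took place 8 of 9 in cold and place 9 at room temperature, against place 3 in each group per kilobase of exon. The exon scale also rests on the M21 span for turning RPKM into reads. Any reads in introns that were counted are divided by exon length too, and their part in these levels was not tested. Per kilobase of span Fgfr3 led in both groups, with 8.39 in cold and 4.92 at room temperature, against 1.06 and 0.808 for Fgf1. The span was 16.6 times the exon length for Fgf1 and 2.15 times for Fgfr3, so Fgf1 stands higher on the exon scale.

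**Figure D2:**
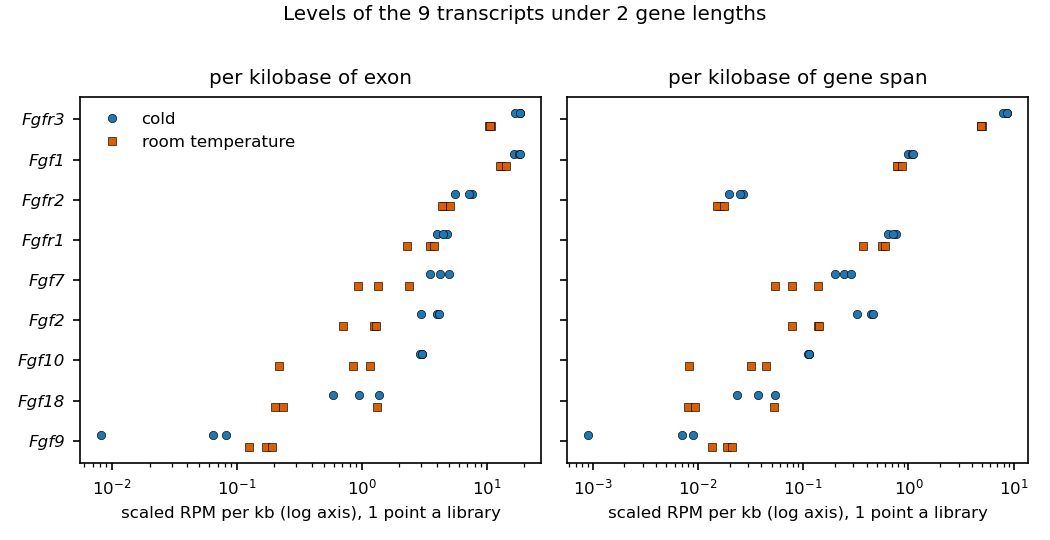
Levels of the 9 transcripts on a log axis, in scaled RPM per kilobase of exon (left) and per kilobase of gene span (right), 1 point a library, cold as circles above room temperature as squares. Fgfr2 takes place 3 by exon length and next to Fgf18 and Fgf9 by span, and Fgf9 alone has its cold points left of its room temperature points.

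Fgf1 made up most of the ligand transcripts, with separate shares in the groups. Of the 6 ligand transcripts, counted per kilobase of exon, Fgf1 made up 56.5%, 64.2% and 58.2% in cold libraries, against 77.5%, 84.9% and 69.3% in room temperature libraries. Fgf1 thus remained the most frequent ligand transcript in every library with every cold share below every room temperature share. These shares rest on reads over a 90.8 kb span inside Arhgap26, and any part of them from that gene or from introns was not tested. Fgf2, Fgf7 and Fgf10 made up 12.5% ± 1.67, 14.3% ± 1.65 and 10.2% ± 0.490 in cold libraries, against 6.12% ± 1.35, 8.59% ± 2.71 and 4.05% ± 2.28 in room temperature libraries (SD, n = 3 each). Fgf9 made up 0.168% ± 0.122 in cold libraries and 0.927% ± 0.192 in room temperature libraries (SD, n = 3 each). For these 5 shares the groups were separate, and a two-sided exact permutation test gave p = 0.1, the smallest that 3 against 3 libraries allow. Fgf18 took 3.26% ± 1.31 in cold and 3.05% ± 2.90 at room temperature (SD, n = 3 each). Among the 3 receptor transcripts the shares overlapped between groups: Fgfr3 took 61.6% ± 2.58 in cold and 57.4% ± 3.93 at room temperature (SD, n = 3 each, exact permutation p = 0.3). With Fgfr4 counted as well, Fgfr4 took 9.12% ± 1.06 in cold and 1.35% ± 1.62 at room temperature, and Fgfr2 took 21.2% ± 3.52 in cold and 25.0% ± 0.390 at room temperature (SD, n = 3 each). Both were separate between the groups, at an exact permutation p of 0.1. All receptor shares rest on the M21 span of Fgfr2, which is 28.4 times its RefSeq span. Receptor shares with the RefSeq span were not computed. The SDs cover the spread between libraries, and the shares were not tested against other gene families.

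**Figure D3:**
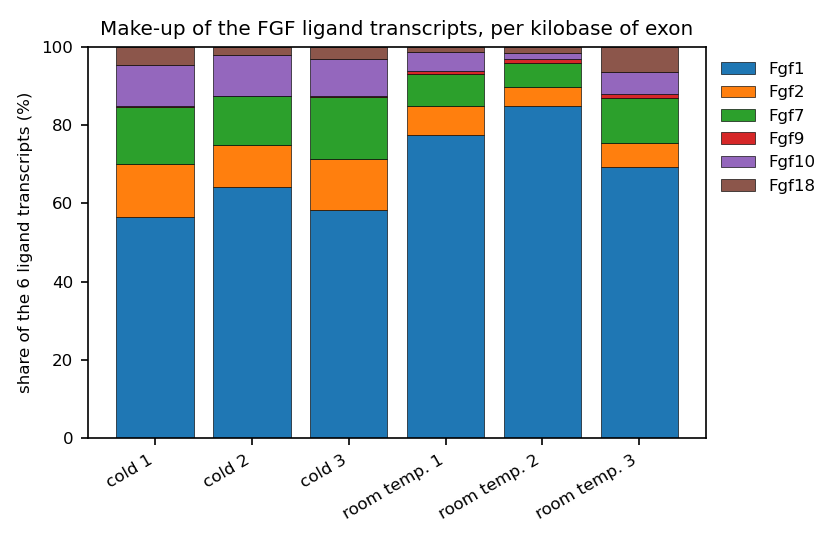
Stacked bars give the share (%) of each of the 6 ligand transcripts, counted per kilobase of exon, in each of the 6 libraries. The Fgf1 part is 56.5% to 64.2% in cold and 69.3% to 84.9% at room temperature.

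Other genes of the pathway, listed for their textbook roles, moved in both directions. The background was 35.5% of all genes tested higher in cold and 35.0% lower. Fgfr4, the remaining kinase receptor of the family, had 11.2, 10.8 and 9.19 scaled RPM in cold libraries, against 0.369, 0.170 and 2.28 in room temperature libraries, of which replicate 3 was the highest. Its log2 fold change was 3.21 ± 0.50 (SE, limma adjusted p = 0.0012). Fgfrl1, a receptor without a kinase domain, had a log2 fold change of −0.39 ± 0.17 (SE, limma adjusted p = 0.071). Leaving out 1 library moved it between −0.52 (without room temperature replicate 2, adjusted p = 0.023) and −0.27 (without cold replicate 3, adjusted p = 0.24), and without cold replicate 1 it was also called (adjusted p = 0.033). Under the deposited scaling Fgfrl1 stood at −0.08 (adjusted p = 0.71). The co-receptor Klb was under the read minimum. Of 16 further FGF ligands and intracellular homologues, 6 could be tested, of which 1 rose (Fgf11, an intracellular homologue) and 3 fell. The 3 were Fgf16, Fgf20 and Fgf13, another intracellular homologue that is listed at 0 in all 3 cold libraries. The call for Fgf13 was lost on deposited RPKM plus 0.01 (limma adjusted p = 0.093), and it fell under the read minimum when a room temperature library was left out or the last decimal was shifted. Fgf21, a hormone-like FGF of fasting and thermogenesis, was listed at 0 in 5 of the 6 libraries. Fgf11, Fgf16 and Fgf20 were named after their values were seen.

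Of 14 inhibitors and target genes of FGF signalling tested, 9 were higher in cold (background 35.5% of all genes tested) and 1 lower (background 35.0%). Their median log2 fold change was 0.81. Spry4, a Sprouty inhibitor, had 23.8, 31.1 and 22.7 scaled RPM in cold libraries, against 1.77, 1.05 and 5.21 in room temperature libraries. The groups lay far apart, with a log2 fold change of 3.26 ± 0.46 (SE, limma adjusted p = 0.00085). Spry2 changed by 0.65 ± 0.14 on the log2 scale, and Spry1 by 0.65 ± 0.24 with overlapping groups (SE, limma adjusted p = 0.0035 and 0.041). The call for Spry1 was lost with the replicate number as a block (adjusted p = 0.090) and without cold replicate 1, cold replicate 2, room temperature replicate 1 or room temperature replicate 2 (adjusted p of 0.087 to 0.13). Il17rd, a membrane inhibitor of FGF signalling, rose by 2.14 ± 0.28, the phosphatase Dusp6, which turns off ERK, by 1.37 ± 0.17, and Spred1 by 0.96 ± 0.11 on the log2 scale (SE). The ETS factors split. Etv5, also active in alveolar type 2 cells, had 43.6, 58.6 and 53.2 scaled RPM in cold libraries, against 8.16, 7.24 and 14.9 in room temperature libraries (log2 fold change 2.36 ± 0.26 SE, limma adjusted p = 0.00023). Etv4, its close relative, had 0.486, 0.406 and 0.364 scaled RPM in cold libraries, against 1.65, 2.14 and 1.46 in room temperature libraries (log2 fold change −1.28 ± 0.18 SE, limma adjusted p = 0.00049). The cold values of Etv4 lay below the added 0.5 RPM. Its change was −1.82 with 0.1 RPM added, −0.63 with 2 RPM and −2.03 by voom.

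Adaptors and relays had 11 of 18 higher and 3 lower (median log2 fold change 0.44). Genes of FGF binding and heparan sulphate had 4 of 18 higher and 10 lower (median −0.45). Over all genes tested, 35.5% were higher in cold and 35.0% lower. Frs2, the docking protein next to the receptor, rose by 0.99 ± 0.12 and the phosphatase Ptpn11 by 0.49 ± 0.11 on the log2 scale (SE, limma adjusted p = 0.00024 and 0.0050). Grb2, an adaptor that binds Frs2, had a log2 fold change of −0.17 ± 0.08 (SE, limma adjusted p = 0.11), which was 0.16 under the deposited scaling. The carrier protein Fgfbp1, which releases FGFs from the matrix, had 7.81, 10.9 and 12.3 scaled RPM in cold libraries, against 37.3, 46.4 and 28.1 in room temperature libraries. It fell by 1.79 on the log2 scale (limma adjusted p = 0.00033). The syndecans Sdc1 and Sdc4, which carry heparan sulphate on epithelium, changed by −1.56 ± 0.14 and −0.79 ± 0.13 on the log2 scale (SE, limma adjusted p = 9.1e-05 and 0.0012). Under the deposited scaling Sdc4 stood at −0.46 and Ptpn11 at 0.81, both still called. Gpc3, a glypican, had 33.4, 27.5 and 40.6 scaled RPM in cold libraries, against 12.5, 4.39 and 69.6 in room temperature libraries, and did not pass (limma adjusted p = 0.33). Room temperature replicate 3 lay above all cold libraries there, and without it the log2 fold change was 2.06 with an adjusted p of 0.0068. Without room temperature replicate 2 it was 0.15 with an adjusted p of 0.88, against 1.04 with all libraries.

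**Figure D4:**
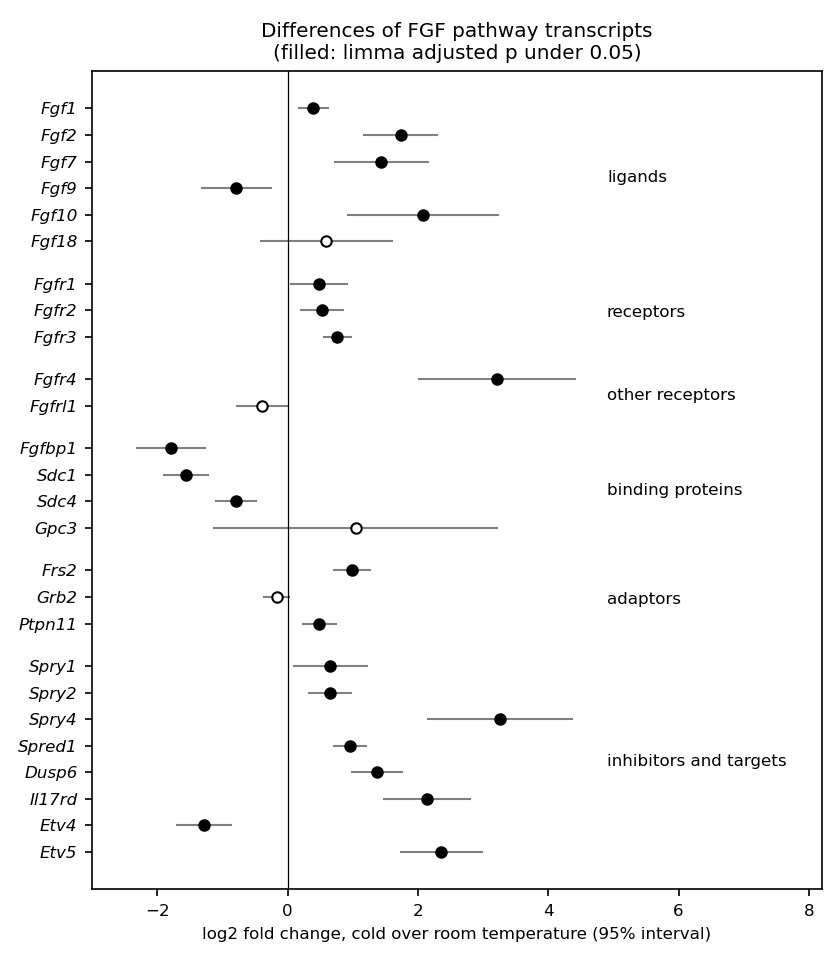
Log2 fold change, cold over room temperature, with its 95% interval for the 9 members and 17 further pathway genes; filled points have a limma adjusted p under 0.05. The intervals of 7 members lie right of 0, that of Fgf9 lies left of it, and Fgfbp1, Sdc1, Sdc4 and Etv4 lie left among the other genes.

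Cell type markers moved in the same libraries. Their counts stand beside a background of 35.5% of all genes tested higher in cold and 35.0% lower. In bulk tissue fewer cells of a type and less RNA per cell cannot be told apart. Of 8 alveolar fibroblast markers, 8 were higher in cold (median log2 fold change 2.52), and their summed level was 1490 to 1744 scaled RPM in cold libraries and 121 to 660 in room temperature libraries. Room temperature replicate 3 held the 660, and replicate 2, the lowest library for Fgf1, Fgf2, Fgf7, Fgf10, Fgfr1 and Fgfr2, held the 121. Alveolar type 1 markers had 7 of 8 higher (sums of 2984 to 3244 in cold and 713 to 1235 at room temperature). For alveolar type 2 markers 5 of 8 were higher (12542 to 17848 in cold and 4583 to 7322 at room temperature), and for endothelium 10 of 10 (1830 to 2167 in cold and 74.4 to 383 at room temperature). B and T cell markers had 8 of 8 higher (28.6 to 31.0 in cold and 2.55 to 12.4 at room temperature). Replicate 2 at room temperature also held the lowest alveolar type 1, endothelial and B and T sums, but not the alveolar type 2 sum.

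Markers of airway, muscle and fat were lower in cold (background 35.0% of all genes tested lower and 35.5% higher). Ciliated cells had 8 of 8 markers lower (summed level 371 to 503 scaled RPM in cold and 1778 to 2721 at room temperature), club cells 7 of 7 (20957 to 24344 in cold and 84370 to 111433 at room temperature) and smooth muscle 8 of 8 (375 to 623 in cold and 2413 to 3025 at room temperature). Of 7 mesothelial markers 2 were lower and 0 higher, with sums of 157 to 223 in cold and 927 to 1136 at room temperature, but Krt19, which airway cells also express, made up 82.4% of that sum. Cardiac muscle had 6 of 7 markers lower (151 to 282 in cold and 429 to 1557 at room temperature) and adipocytes 6 of 7 (16.9 to 31.2 in cold and 66.4 to 132 at room temperature). Adventitial fibroblast markers split, with 2 of 9 higher and 4 lower (195 to 264 in cold and 211 to 398 at room temperature). Of 10 cartilage and trachea markers, 3 could be tested, of which 1 was higher and 1 lower (3.85 to 4.54 in cold and 7.71 to 9.41 at room temperature). In this list Acan was at 0 in all 6 libraries and Col9a1 in the 3 cold libraries, and no defining marker of the other 12 lists was at 0 throughout a group. The part of these markers in the FGF differences was not tested.

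**Figure D5:**
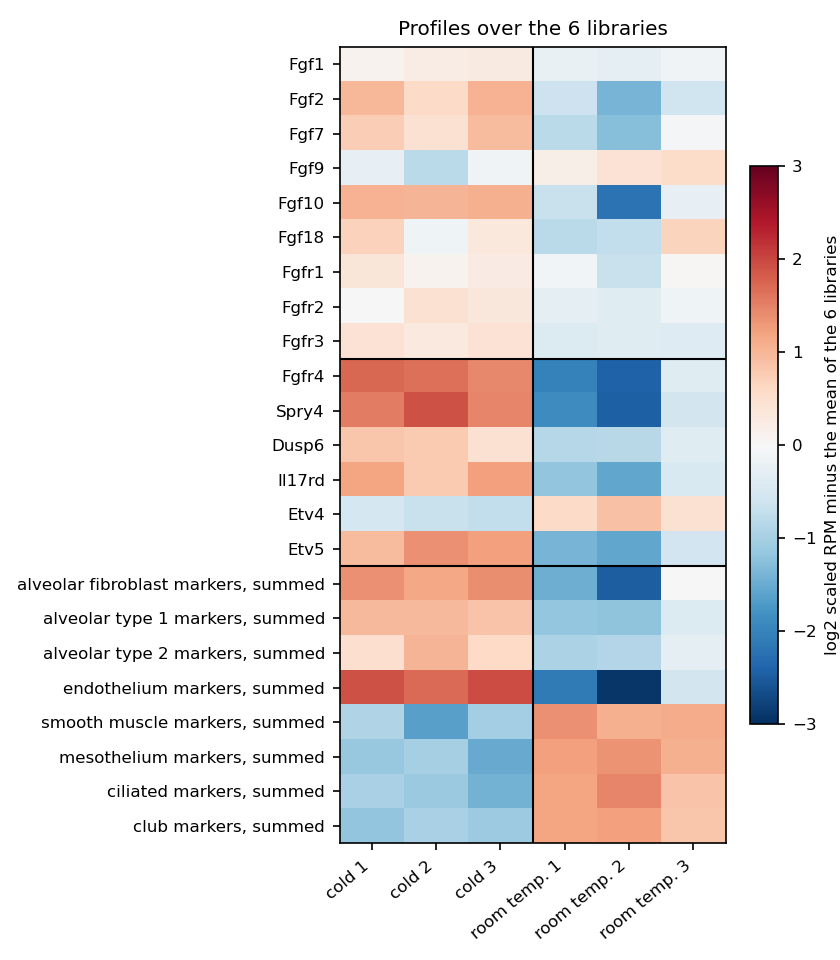
Colours give log2 values minus the mean of the 6 libraries, capped at 3 either way, for the 9 members, 6 further pathway genes and the summed markers of 8 cell types, with cold columns left of room temperature columns. Fgf1, Fgf2, Fgf7, Fgf10, Fgfr1, Fgfr4, Spry4, Il17rd and Etv5 have positive cold columns and are lowest in room temperature replicate 2. The summed alveolar fibroblast, alveolar type 1 and endothelial markers do the same.

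Room temperature replicate 3 was not equally near to cold in every member. On a scale where the mean of room temperature replicates 1 and 2 is 0% and the cold mean 100%, it stood at 56.0% for Fgf7, 48.2% for Fgf10, 66.1% for Fgfr1 and 134% for Fgf18. It stood at 33.9% for Fgf1, 32.4% for Fgfr2, 22.3% for Fgf2, −0.881% for Fgfr3 and −32.9% for Fgf9. It thus lay between the cold mean and the other room temperature libraries in 6 members, beyond the cold mean in Fgf18, level with the other room temperature libraries in Fgfr3 and on their far side in Fgf9. The genes with the most similar profile over the 6 libraries, by the root mean square difference of centred log2 values, were Nid1 for Fgf2 (0.071), Naalad2 for Fgf7 (0.059) and Tnxb for Fgf10 (0.16). They were Gpatch2 for Fgf1 (0.026), Shc4 for Fgf9 (0.12) and D8Ertd82e for Fgf18 (0.20). For the receptors they were Slco2b1 for Fgfr1 (0.062), Nol8 for Fgfr2 (0.052) and Gabpb1 for Fgfr3 (0.019). The search covered 12374 genes, so a close profile is a description only.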

How the data were processed

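The authors deposited RPKM, rounded to 3 decimals, for each gene in each library. The submitters' processing notes name build mm10. The aligner, the counter and the annotation were not given in the sources used here. Although the table is named as raw counts, RPKM times the GENCODE M21 gene span, not exon length, fell on whole multiples of a step per library (phase coherence 0.792 to 0.841, against 0.124 to 0.171 for exon length, where 1 is exactly whole). Of low recovered read numbers 83.1% to 86.3% were whole within 0.1. The deposited log2 fold change is the authors' log2 ratio of group means plus 0.001 in all 18174 rows, and the deposited q value adjusts the authors' p-value, whose test is not named. Library preparation used a NEBNext kit, per the labels' protocols. Library columns matching no sample number 0.

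Of the rows, 92 had no M21 gene and were left out. RPM was scaled per library by TMM without weights, trimming 30% of the ratios and 5% of the averages on either side. Genes with the equivalent of 10 reads in at least 3 libraries and 15 in all were tested by limma 3.58.1 in R 4.3.3 (lmFit, eBayes with trend and robust options) on log2(scaled RPM + 0.5), two-sided, threshold 0.05. The added constant shrinks log2 fold changes of genes near 0.5 RPM. The procedure was tested on simulated data. Alternatives were no filter, other added constants, the deposited or a median of ratios scaling, deposited RPKM plus 0.01, voom, eBayes without both options, the block below and leaving out each library. The members, lists and named genes were chosen with earlier results of these data known. Named genes are the 9 members, 21 pathway genes picked by textbook role, and for each member the nearest profiles among genes outside the lists with a mean log2 RPM of at least 1. Replicate numbers run from 1 to 3 in each group. Deviations from the group means correlated across genes between same-numbered libraries at 0.115, 0.149 and 0.155, each over 0.1. Libraries with different numbers were not compared, so these values do not show that the numbers mark pairs. The numbers were treated as pairs only in the alternative that has the replicate number as a block. Chi-square per degree of freedom between replicates was 15.9 to 88.3, so none agreed within sampling noise.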

Additional observations from a re-analysis of the deposited data

How the results depend on the processing

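Over the 17 alternatives the number of members higher in cold was 6 to 8 and the number lower 0 or 1. Leaving out 1 library at a time gave 6 to 8 members higher and 0 to 1 lower, and 4587 to 5430 genes higher and 4651 to 5404 lower over the whole table. The count of members lower was 0 without cold replicate 2, where Fgf9 lost its call. Fgf1, Fgf2, Fgf7, Fgf10 and Fgfr3 kept their calls in all 18 settings, Fgf9 and Fgfr2 in 17 and Fgfr1 in 11. Fgf18 was called in 1, without room temperature replicate 3. With the replicate number as a block 7 members were higher and 1 lower, with 5352 genes higher and 5319 lower over the table. The block changed no call of a member, and Spry1 was the only named pathway gene that lost its call with it. Under the deposited scaling 7034 genes were higher and 3766 lower, so 65.1% of calls were higher against 50.4% with composition scaling. Grb2 had a log2 change of 0.16 there and of 0.15 on deposited RPKM plus 0.01. Fgf13 was called in the fits that could test it except on deposited RPKM plus 0.01, with values of −5.75 by voom to −0.18 there. Fgf14, which rests on the last decimal, ranged from −0.20 to 0.52 when 1 library was left out, with room temperature replicate 1 giving the lower value, and was at −0.73 with each value moved by 0.0005 RPKM towards the other group. The RefSeq spans and this shift of the last decimal were chosen after seeing the data. Depth limits Fgf9 and Fgf18 most, with 1.38 to 34.0 and 8.33 to 60.4 reads a library.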
